A study of Tachycineta bicolor with 20 samples.

Results

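The subject here is a set of 100 ovarian transcripts of the tree swallow (Tachycineta bicolor) that were lower in every unmanipulated control female of Day 2 than in every control female of Day 0. Levels are given as CPM, a transcript's read count divided by the bird's total count and multiplied by 1000000. Of 14782 transcripts, 8989 were the only entry of their ID stem and had a mean CPM over the 20 birds from 5 to 300. The members are those of the 8989 whose highest value among the 5 Day 2 controls lay below the lowest value among the 5 Day 0 controls. The members were thus chosen by the CPM values of the control birds, and all values of control birds below are a description with no test. The experimental birds took no part in that choice, apart from the mean CPM window.

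The tree swallow is a songbird that nests in cavities it cannot dig itself, so females compete for nest sites. The ovary of a laying songbird holds follicles of graded size. Granulosa and theca cells around each oocyte make steroid hormones, and yolk is taken up as a follicle nears ovulation. The makeup of the whole organ shifts over days as follicles grow, ovulate and regress.

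The study sampled 4 groups of adult females. For experimental females, nest boxes were taken down for a time to raise competition. There were 4 of them on Day 2, which is 2 days after the peak of competition, and 6 on Day 0, the peak itself. Control females were left alone and matched by date, with 5 on Day 2 and 5 on Day 0. Each library was made from mRNA of 1 female, and total counts ran from 5818117 to 15718893. The groups overlapped in total counts, at 8239722 to 15718893 in experimental birds of Day 2, 5818117 to 12089161 in experimental birds of Day 0, 8927386 to 13376380 in Day 2 controls and 8304445 to 13856417 in Day 0 controls. No gene name accompanies the IDs in the count table, so ovarian cell type markers were not looked up, no function is given for any member, and transcripts appear by ID.

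In control birds the members had, by the rule, lower mean CPM on Day 2 than on Day 0, by a median of 1.62-fold (log2 ratio -0.69, with quartiles of -1.03 and -0.50). The smallest difference was a log2 ratio of -0.22 and the largest -2.80. Over all 8989 transcripts of the window the median log2 ratio was -0.03. In 26 members the mean of Day 2 controls was below that of Day 0 controls by more than 1 on the log2 scale, whereas 242 transcripts of the window had such a difference, most of them with control groups that overlapped. The rule thus picked transcripts whose controls were separated, not those with the largest difference. In whole ovaries, fewer cells of a type and less RNA per cell cannot be told apart.

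**Figure D1:**
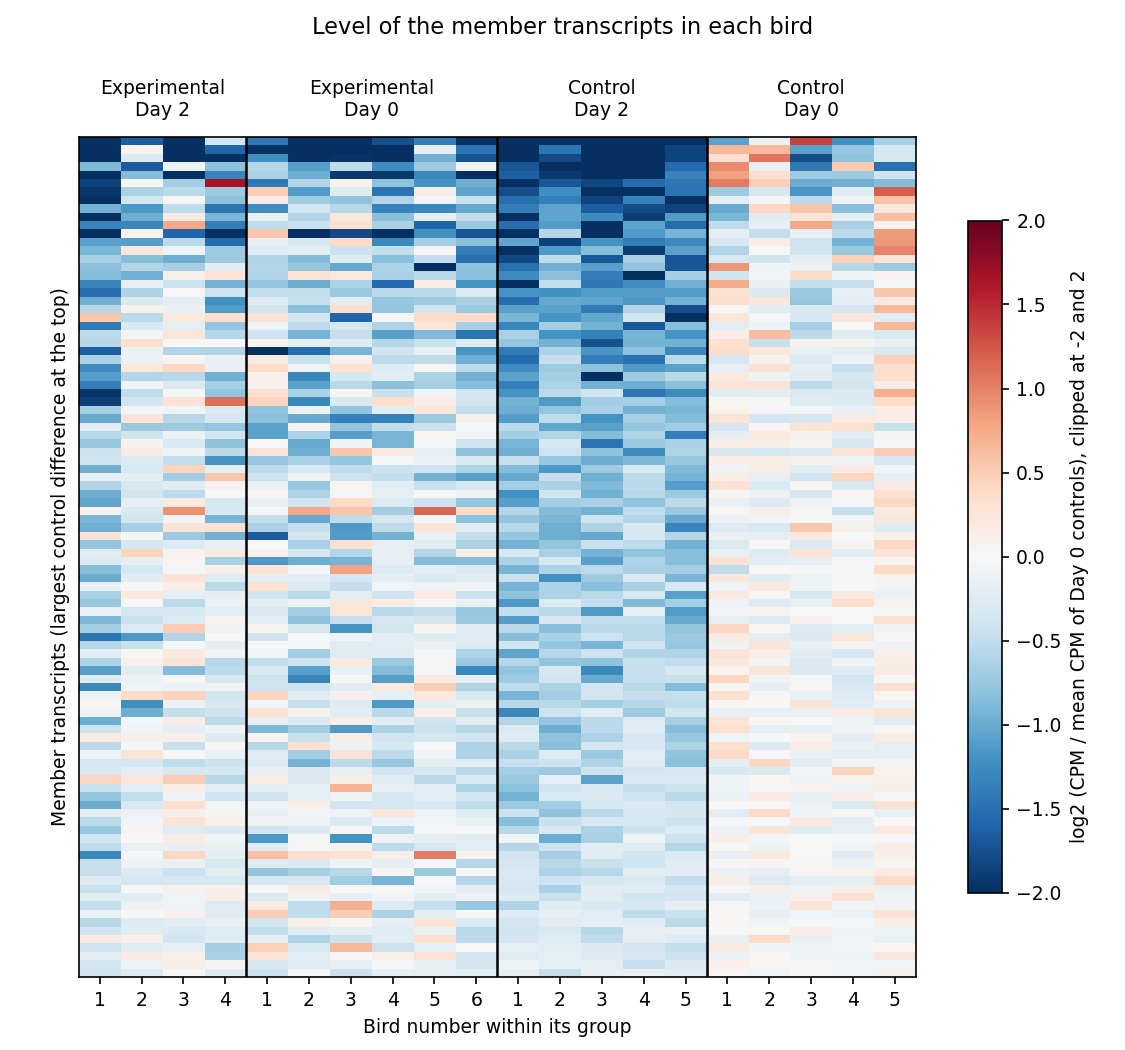
Level of the 100 members (rows, ordered by the control difference) in the 20 birds (columns), as log2 of CPM over the mean CPM of the Day 0 controls. The Day 2 controls are lower than the Day 0 controls throughout, as the rule requires. Median log2 ratios per bird were -0.81 to -0.55 in Day 2 controls and -0.11 to 0.07 in Day 0 controls. They were -0.64 to -0.11 in experimental birds of Day 2 and -0.47 to -0.19 in those of Day 0. The choice of members fixes part of that position.

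The member with the widest gap between the control groups was tree_swallow006988t1_sg0.0. Its level was 3.36, 5.16, 5.55, 2.68 and 5.04 CPM in Day 2 controls and 14.4, 27.4, 77.7, 12.9 and 19.0 CPM in Day 0 controls. The lowest Day 0 control was 2.33-fold above the highest Day 2 control, and control bird 3 of Day 0 stood far above the other 4. In experimental birds the same transcript had 2.31, 9.71, 6.04 and 23.0 CPM on Day 2, and 4.13 to 11.6 CPM with a median of 8.16 on Day 0. All 6 experimental birds of Day 0 were below every Day 0 control, and experimental birds of Day 2 spread from below the Day 2 controls to inside the Day 0 range.

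The next widest gap, 1.77-fold, was that of tree_swallow000748t1_sg0.0, which was also the member of lowest mean level at 5.02 CPM. It had 2.54, 2.79, 2.03, 2.83 and 1.79 CPM in Day 2 controls, against 6.34, 7.07, 5.01, 6.89 and 10.7 CPM in Day 0 controls. Experimental birds had 1.73, 5.58, 7.32 and 4.07 CPM on Day 2, and 4.13 to 8.07 CPM with a median of 5.05 on Day 0. Every experimental bird except bird 1 of Day 2 was above all Day 2 controls. These are low levels, resting on 16 to 115 reads per bird.

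The most abundant member, tree_swallow000990t1_sg0.0, averaged 183 CPM over the 20 birds. Its level was 163, 132, 108, 118 and 115 CPM in Day 2 controls, and 187, 171, 250, 177 and 252.03 CPM in Day 0 controls. Experimental birds had 179, 283, 218 and 235 CPM on Day 2, and 138 to 228 CPM with a median of 172 on Day 0. On Day 2 all 4 experimental birds were above all 5 controls, and on Day 0 the treatments overlapped. For each member named so far, the rule chose the control values. Nothing is thus read from where experimental birds lie relative to them.

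Most gaps were narrow. The ratio of the lowest Day 0 control to the highest Day 2 control had a median of 1.06. It was above 1.5 in 3 members and the gap exceeded 10% in 31 of the 100. Just inside the rule lay tree_swallow001771t1_sg0.0, whose highest Day 2 control had 7.790 CPM and whose lowest Day 0 control had 7.794 CPM. Just outside lay tree_swallow003668t1_sg0.0, at 9.167 CPM in its highest Day 2 control and 9.165 CPM in its lowest Day 0 control. In both transcripts the 2 birds differ by less than the worth of 1 read. At the lower edge of the CPM window, 52 further single-entry transcripts showed the same separation with a mean under 5 CPM, the closest at 4.86 CPM. Above 300 CPM there were 0. Single-entry transcripts numbered 12280 in all, but those on each side of the window were not counted separately. Neither count thus has a share beside it, and neither is set against the share inside the window.

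The 100 members were 1.11% of the 8989 transcripts in the window. If the 10 control birds could be exchanged freely, complete separation in a given direction would arise in 0.397% of the arrangements of 5 and 5 birds, which gives 35.7 transcripts. The count was 2.80 times that number. Transcripts of a bird share that bird's state and library, so they are not independent draws, and the number by chance is printed as a scale and not as a test. In the opposite direction 147 transcripts (1.64%) were higher in all Day 2 controls. In the experimental birds, where 0.476% of the arrangements of 4 and 6 birds separate the days in a given direction and would give 42.8 transcripts, 53 of the 8989 (0.590%) were lower in all Day 2 birds and 50 (0.556%) were higher.

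The split between lower and higher depended on how the libraries were scaled. With TMM factors, which adjust each total for its composition, 87 transcripts were lower and 188 higher in Day 2 controls, and with RLE factors 76 were lower and 219 higher. TMM factors were 0.980 to 1.02 in Day 2 controls and 0.975 to 1.07 in Day 0 controls, with the highest in control bird 5 of Day 0. Of the 100 members, 79 remained under TMM factors, 76 under RLE factors and 70 after thinning all libraries to the smallest total. There were 58 that remained under all 3 of these. Leaving out 1 control bird at a time can only raise the number of separated transcripts, and it was lowest without bird 3 of the Day 2 controls, at 133, and highest without their bird 2, at 264. With 4 against 5 birds, exchange of the birds gives 71.3. The counts could not fall below the 100 members, so their lying above 71.3 was fixed in advance.

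The question left to the experimental birds was whether the same transcripts were lower on Day 2 there as well. They were not detectably so. By edgeR's quasi-likelihood test on the 10 experimental birds alone, 0 of 13276 transcripts were called at an adjusted p under 0.05 (0% of those tested), and 0 of the 100 members, all of which were tested. The smallest adjusted p was 0.355 over all transcripts and 0.945 among the members. At an unadjusted p under 0.05 there were 0 members lower (2.09% of all transcripts) and 2 members higher on Day 2 (2.46% of all transcripts). The median log2 fold change of the members, Day 2 over Day 0, was -0.02, with quartiles of -0.16 and 0.16, against a median of -0.03 over all transcripts tested. There were 53 members with a negative and 47 with a positive fold change, and 54.1% of all transcripts were negative. DESeq2 called 11 transcripts overall and 0 members, and limma-voom called 0 of either.

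The precision for single members was like that for all transcripts tested and lower than that for the window. Neither set is matched to the members for level. The members had a median of 17.3 CPM, against 41.0 CPM over the window. The 95% interval of the log2 fold change in experimental birds lay wholly above -1 in 87 of the 100 members, against 85.0% of all transcripts tested and 89.9% of those in the window, so this share says nothing particular of the members. The day difference in controls was fixed by the rule, so whether it differed between treatments was not tested. The median standard error was 0.24 on the log2 scale, against 0.23 over all transcripts tested and 0.21 over the window. The interval lay between -1 and 1 in 76 members, against 76.8% of all transcripts tested and 84.5% of the window. None of the members had non-overlapping days in experimental birds in either direction (0 lower and 0 higher), beside the 0.590% and 0.556% of the window given above, which would be less than 1 transcript in 100.

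**Figure D2:**
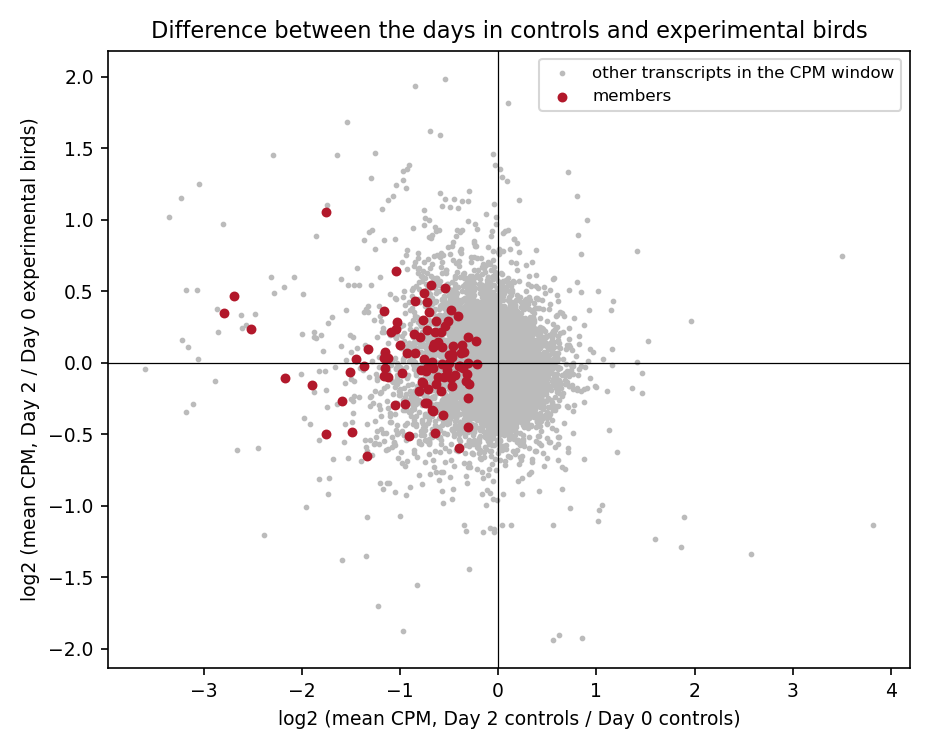
Each point is a transcript of the CPM window, with log2 of mean CPM in Day 2 controls over Day 0 controls on the x axis and log2 of mean CPM in Day 2 over Day 0 experimental birds on the y axis. The members (red) lie left of 0 by the rule, with a median of -0.69, and are spread about 0 on the y axis, 51 above and 49 below.

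The members with the smallest p in experimental birds illustrate the range. The transcript tree_swallow001434t1_sg0.0 had 40.3, 52.2, 47.5 and 50.9 CPM in experimental birds of Day 2, and 24.6 to 40.7 CPM with a median of 34.0 in experimental birds of Day 0. The lowest Day 2 bird was just under the highest Day 0 bird. Its log2 fold change was 0.51 (SE 0.15), with an unadjusted p of 0.00480 and an adjusted p of 0.945 by edgeR. Controls of the same transcript were lower on Day 2, at 44.4, 27.4, 37.7, 46.0 and 30.0 CPM on Day 2 and 67.9, 47.3, 48.9, 51.8 and 54.9 CPM on Day 0.

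The transcript tree_swallow002761t1_sg0.0 had 25.7, 35.7, 44.2 and 25.1 CPM in experimental birds of Day 2, and 13.6 to 27.8 CPM with a median of 19.9 in those of Day 0 (log2 fold change 0.61, SE 0.24, edgeR unadjusted p = 0.0239, adjusted p = 0.945). Here 2 of the 4 Day 2 birds lay above all Day 0 birds. Its controls had 23.7, 16.2, 14.6, 19.4 and 16.5 CPM on Day 2 and 40.9, 56.8, 26.0, 32.0 and 30.1 CPM on Day 0.

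In the other direction, tree_swallow001959t1_sg0.0 had 7.01, 6.92, 10.3 and 5.06 CPM in experimental birds of Day 2, and 6.07 to 19.7 CPM with a median of 10.6 in those of Day 0. Its log2 fold change was -0.68 (SE 0.34, edgeR unadjusted p = 0.0693, adjusted p = 0.945). The transcript tree_swallow001494t1_sg0.0 had 5.96, 7.40, 10.9 and 16.5 CPM on Day 2, and 12.4 to 16.2 CPM with a median of 14.1 on Day 0 (log2 fold change -0.51, SE 0.26, edgeR unadjusted p = 0.0717, adjusted p = 0.945). In both transcripts the days overlapped, and in the second the highest of all 10 birds was a Day 2 bird. These 2 had the smallest p among members with a negative fold change.

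**Figure D3:**
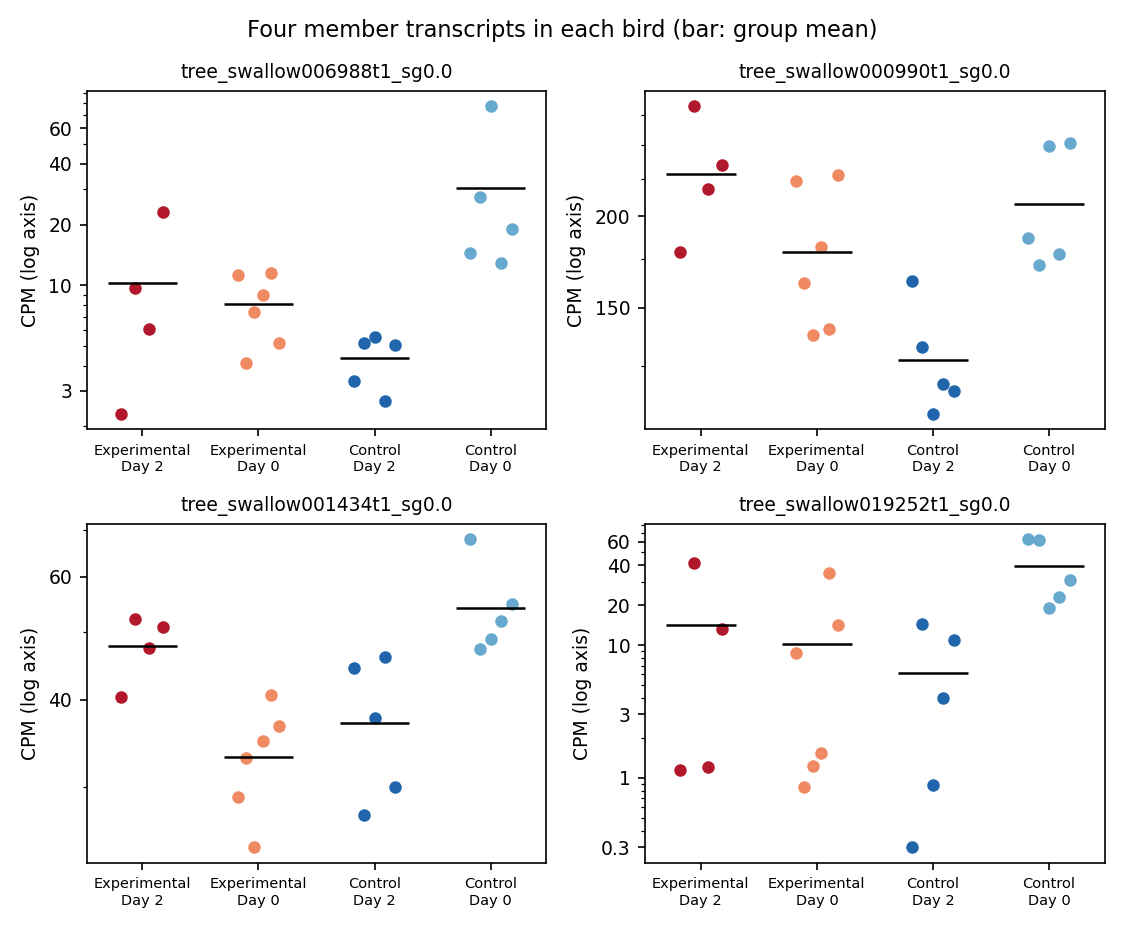
CPM on a log axis of 4 members in each bird, by group, with a black bar at the group mean. The control groups are separated in each panel by the rule, while the experimental groups overlap, barely so for tree_swallow001434t1_sg0.0, where the lowest Day 2 bird had 40.3 CPM and the highest Day 0 bird 40.7 CPM.

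Relative to the controls, the experimental birds of both days lay mostly across the 2 control ranges. Of the 400 values of experimental birds on Day 2, 40.5% were at or below the highest Day 2 control of the same transcript, 12.8% lay in the gap and 46.8% were at or above the lowest Day 0 control. Of the 600 values of experimental birds on Day 0, the shares were 41.5%, 12.3% and 46.2%. The pooled shares of the 2 days were thus nearly the same. They rest on 4 birds and 6 birds, not on 400 and 600 independent values. In the 58 members that remained under all 3 scalings, the shares at or below the highest Day 2 control were 39.7% on Day 2 and 39.7% on Day 0.

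Single experimental birds differed from each other more than the days did. On Day 2, bird 1 was at or below the highest Day 2 control for 70 of the 100 members, against 27, 24 and 41 in birds 2, 3 and 4. Bird 1 was also the lowest of its group for 63 members. Without it, 30.7% of the Day 2 values were at or below the highest Day 2 control and 55.3% at or above the lowest Day 0 control. On Day 0 the number ran from 29 in bird 5 to 53 in bird 6. Values beyond both control groups were few, with 5.00% below every Day 2 control and 6.75% above every Day 0 control on Day 2, and 5.33% and 5.67% on Day 0.

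**Figure D4:**
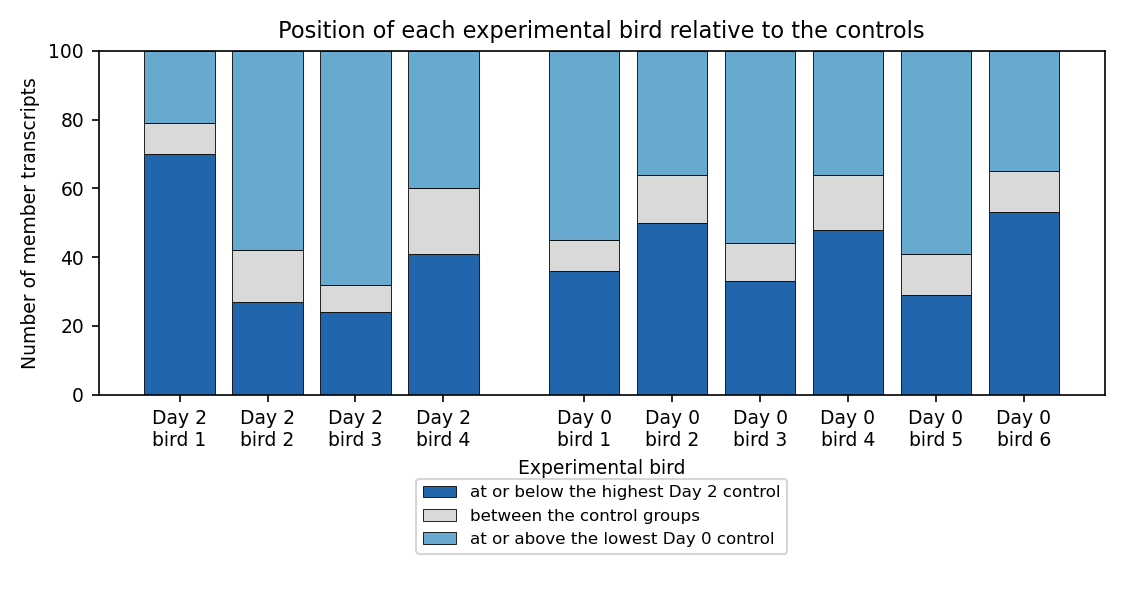
For each experimental bird, the number of the 100 members at or below the highest Day 2 control (dark blue), in the gap between the controls (grey) and at or above the lowest Day 0 control (light blue). Bird 1 of Day 2 stands out with 70 at or below the highest Day 2 control, 15 of them below every Day 2 control, and the other 9 birds have 24 to 53.

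The choice of members fixes part of where the experimental groups lie relative to the controls. The members' summed level adds up the same CPM values and is no separate result. It was 2462, 3374, 3575 and 3130 CPM in experimental birds of Day 2, and 2751 to 3272 CPM with a median of 3024 in experimental birds of Day 0. It was 2279, 2318, 2234, 2449 and 2318 CPM in Day 2 controls and 3765, 3907, 3589, 3509 and 4075 CPM in Day 0 controls. The experimental days overlapped, at 3135 ± 484 CPM (SD, n = 4) on Day 2 and 3029 ± 220 CPM (SD, n = 6) on Day 0. The control groups were set apart by the rule, at 2319 ± 80.5 CPM (SD, n = 5) on Day 2 and 3769 ± 231 CPM (SD, n = 5) on Day 0. Experimental bird 3 of Day 2 was the only experimental bird whose sum reached the range of the Day 0 controls.

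**Figure D5:**
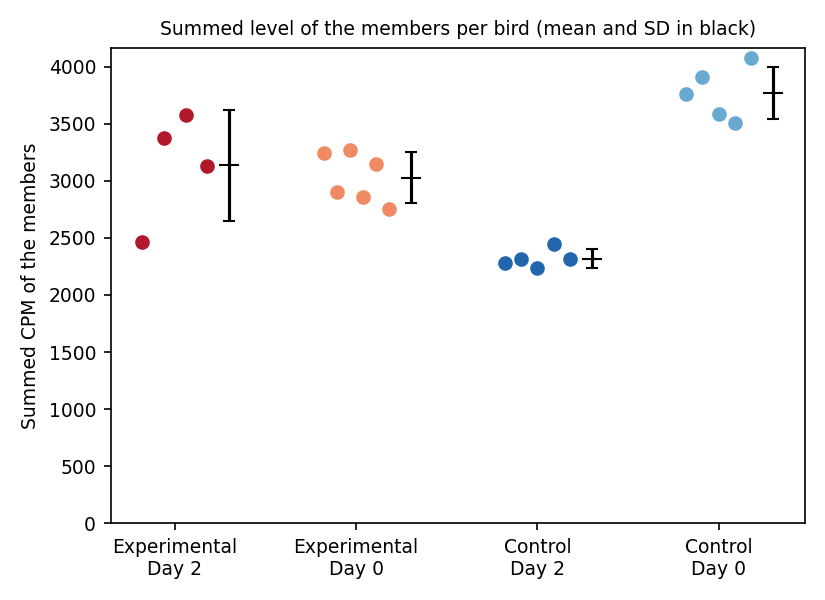
Summed CPM of the 100 members in each bird, by group, with mean and SD in black. Both experimental groups lie between the controls in mean, at 3135 and 3029 CPM, a position that the choice of members fixes in part. Experimental bird 1 of Day 2, at 2462 CPM, is next to the Day 2 controls.

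Means of experimental birds were mostly above those of controls on Day 2 and below them on Day 0. Each of these comparisons shares its control birds with the rule, so the values are given with no test. On Day 2, 96 of the 100 members had a higher mean in experimental birds than in controls, with a median log2 ratio of 0.43, where the median over the window was 0.01. On Day 0, 91 had a lower mean in experimental birds, with a median log2 ratio of -0.30, against -0.02 over the window. The experimental mean lay between the 2 control means for 87 members on Day 2 and for 86 on Day 0. In 12 members all 4 experimental birds of Day 2 lay above all 5 Day 2 controls (0.768% of the window), and in 4 members all 6 experimental birds of Day 0 lay below all 5 Day 0 controls (0.545% of the window). The choice of members fixes part of these shares, and nothing is read from them.

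The largest ratio on Day 2 was that of tree_swallow001270t1_sg0.0, which had 4.13, 14.6, 9.35 and 46.5 CPM in experimental birds and 2.69, 4.62, 4.23, 5.11 and 5.49 CPM in controls. The mean ratio of 4.21 rests mostly on bird 4, and bird 1 was within the control range. The next, tree_swallow001450t1_sg0.0, had 12.2, 7.16, 21.4 and 12.9 CPM in experimental birds of Day 2 against 6.88, 5.48, 2.38, 2.68 and 7.73 CPM in controls, a ratio of 2.67. In this transcript 3 of the 4 experimental birds were above all controls.

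At the other end on Day 2, tree_swallow038036t1_sg1.0 had 31.7, 35.8, 37.9 and 26.8 CPM in experimental birds against 37.4, 36.7, 34.6, 32.4 and 30.0 CPM in controls, and tree_swallow001494t1_sg0.0, whose experimental values are given above, had 8.97, 10.4, 12.2, 11.2 and 9.75 CPM in controls. Their ratios were 0.966 and 0.970. Treatments overlapped on Day 2 in both.

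On Day 0 the lowest ratios to controls were 0.260 for tree_swallow019252t1_sg0.0 and 0.267 for tree_swallow006988t1_sg0.0, the member of widest gap. The transcript tree_swallow019252t1_sg0.0 had 0.859 to 34.9 CPM with a median of 5.15 in experimental birds of Day 0, and 62.4, 62.2, 18.9, 23.1 and 30.8 CPM in Day 0 controls. Its level was 1.15, 41.4, 1.21 and 13.1 CPM in experimental birds of Day 2 and 0.299, 14.5, 0.881, 4.01 and 11.0 CPM in Day 2 controls. Within each of these groups except the Day 0 controls its birds differed more than 10-fold, so its day difference in experimental birds had a wide error (log2 fold change 0.44, SE 1.15, edgeR adjusted p = 0.975). The direction turned to -1.04 when experimental bird 2 of Day 2 was left out, and limma-voom gave -0.27. Leaving out bird 5 of the experimental Day 0 group gave 1.38.

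The highest ratios on Day 0 were 1.38 for tree_swallow014294t1_sg0.0 and 1.36 for tree_swallow007937t1_sg0.0. The level of tree_swallow014294t1_sg0.0 was 5.35 to 19.2 CPM with a median of 12.0 in experimental birds of Day 0, against 8.76, 9.53, 8.88, 6.22 and 9.87 CPM in controls. The transcript tree_swallow007937t1_sg0.0 had 5.64 to 11.0 CPM with a median of 6.73 in experimental birds of Day 0, against 4.83, 6.21, 5.48, 4.69 and 5.90 CPM in controls. Experimental and control birds of Day 0 overlapped in both transcripts.

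Apart from the separation of the controls, the members were mostly transcripts of low level. Their mean CPM ran from 5.02 to 183 with a median of 17.3, against 41.0 over the window. There were 21 members under 10 CPM, 55 under 20 CPM and 5 at or above 100 CPM. The lowest read count of any member in any bird was 4, and the median over members of the lowest count was 68.5 reads. Over the 20 birds the highest value of a member was a median of 2.88-fold above the lowest, against 2.39-fold over the window. That ratio ran from 1.46 to 209 and exceeded 10 in 9 members. It includes the control birds, which the rule set apart, and the window is not matched for level. The choice of members thus fixes part of the difference from the window, and nothing is read from it.

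The spread between birds of a group, which the rule constrains only in controls, can be compared in experimental birds. The median coefficient of variation was 26.3% in experimental birds of Day 2 and 26.6% in those of Day 0, against 18.2% and 23.7% over the window. Low transcripts of the window varied more than the window as a whole, and the cause was not tested. Among transcripts under 17.3 CPM, the 50 members had 31.4% on Day 2 and 27.5% on Day 0, and the 2247 transcripts of the window had 27.8% and 30.5%. Among these low transcripts the members' median was thus above that of the window on Day 2 and below it on Day 0, with no test of either difference. In controls, where the rule favours little spread, the members had 17.3% on Day 2 and 17.5% on Day 0, against 19.6% and 20.5% over the window. The IDs themselves showed little pattern, as 98 members ended in t1_sg0.0, against 93.0% of the window.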

How the data were processed

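RNA was sequenced from whole ovaries of 20 females. The authors deposited a table of read counts per transcript and bird, whole numbers with no normalization. The submitters' processing notes name Bowtie2 2.4.2, fastp 0.20.1, SAMtools and CASAVA. The names of the reference and counting program, and the strand setting, were not given in the sources used here. Libraries kept strand and selected mRNA after Trizol extraction, per the labels' protocols. A line naming no transcript had 0 counts and was left out.

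CPM used column totals. The members, the comparisons and the rule for naming transcripts were chosen with earlier results of these data known. IDs named are those with the 2 widest gaps, the highest and lowest level, the positions next to the rule's limit, the 2 smallest p per direction in experimental birds, and the 2 lowest and 2 highest ratios of experimental birds to controls on each day. The test was edgeR 4.0.16 (R 4.3.3), robust quasi-likelihood, TMM factors, filterByExpr (minimum count 10, total 15), on the 10 experimental birds, so that no control bird entered it. The p-values were adjusted by Benjamini-Hochberg over all 13276 transcripts. Standard errors were derived from the fold change and its F statistic. The common biological coefficient of variation was 0.312. Alternatives were the fit of all 20 birds, DESeq2 1.42.0, limma 3.58.1 voom, RLE factors, a threshold of 0.10 on adjusted p, no filter, and single birds left out. The fit was tested on simulated data. Counts limit precision. Intervals are for the difference between the 2 group means, and their width reflects the spread between these birds.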

Additional observations from a re-analysis of the deposited data

Results flagged for a closer look

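Among 72 checks of a bird far from the rest of its group (18 quantities in 4 groups), 1 bird stood apart. A rate of 1 in 20 would give 3.6, printed as a scale and not as a test. The quantities are not independent, and the rule chose the members by the values of the control birds. Control bird 3 of Day 0 had 77.7 CPM of tree_swallow006988t1_sg0.0, against 12.9 to 27.4 CPM in the other 4 Day 0 controls.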

How the results depend on the processing

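The number of members was 100 of 8989 transcripts with column totals, 87 with TMM factors, 76 with RLE factors and 104 after thinning. Wider choices of transcripts gave 122 of 10905 with all stems. They gave 131 of 11051 with a mean of at least 1 CPM and no upper limit. Leaving out control bird 5 of each day together, an alternative chosen after seeing the data, gave 197 lower and 331 higher of 8989 transcripts. That leaves 4 against 4 birds, which separate by exchange more often than 4 against 5. The number by exchange was not computed for it, and the 71.3 below does not apply to it. With 1 control bird left out, 133 to 264 were lower and 161 to 263 higher in Day 2 controls. Exchange of the birds gives 71.3. These counts could not fall below the 100 and 147 with all control birds, so their lying above 71.3 was fixed in advance. Fewer birds separate more often by exchange alone. Counts with birds left out are thus not comparable with the 100. In experimental birds 0 members were called in each of the 16 alternatives. Over all transcripts DESeq2 called 11, and leaving out 1 bird gave 0 to 1, the call arising without experimental bird 4 of Day 0. The median log2 fold change of the members ran from -0.02 to -0.01 over the 6 other alternatives, and with single birds left out it was lowest, -0.06, without bird 2 of the experimental Day 2 group and highest, 0.05, without its bird 1. Members lower in experimental birds at an unadjusted p under 0.05 numbered 0 to 4 and members higher 1 to 5. Over all transcripts, 434 to 746 reached that level in either direction. Members with separated experimental days numbered 0 to 2 lower and 0 to 3 higher with 1 bird left out. The 8989 transcripts of the window then had 59 to 118 lower and 56 to 148 higher. With TMM factors 1 member was higher, beside 44 transcripts of the window. The causes were not tested. No paired analysis was possible because the labels give each female a number of her own and pair none across groups. Every Day 0 control has a lower number than every Day 2 control, whereas the numbers of the experimental days overlap. What the numbers order is not given, so in the controls it cannot be told apart from day. Whether depth limited members of few reads more than others was not tested.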
